A study of Aspergillus fumigatus with 12 samples.

Results

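Non-additivity of the azo dye Ponceau 2R and sinapic acid was measured in fungal mycelium as a 2 by 2 design. The genes were those with at least 1 FPKM (a fragment count scaled to gene length and library size) in 3 or more of 12 mRNA libraries, which held for 9240 of the 10276 genes in the deposited table. CK was grown in basic medium alone. The dye was added to that medium in P2R, the phenolic acid in SA, and both in P2R+SA, with 3 libraries in each group. All 4 groups therefore share the strain, named X-13 in the series design, and the medium. No dose of either compound is given in the sources used here. The labels do not tie replicates to separate cultures, so every p-value reflects library-to-library spread that may be purely technical. A change in FPKM is a change in a transcript's share of the RNA, and a shift in the make-up of the mycelium cannot be told apart from it.

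The series title gives the fungus as Trametes hirsuta, whereas the organism field of the samples gives Aspergillus fumigatus. White-rot fungi such as Trametes secrete laccases and peroxidases, oxidative enzymes that attack lignin and many synthetic dyes. Small phenolic acids of the lignin pathway, sinapic acid among them, are substrates of laccases, and their oxidised forms can act on compounds that the enzyme attacks poorly. A 2 by 2 design asks whether a gene in cultures with both compounds stood where the separate effects of dye and phenolic acid, added together, would place it. The files pair no gene ID with a name or product, and 0 of the IDs matched the 10086 genes of the reference table, so genes are described by their levels and responses.

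The libraries held 35919373 to 39408704 fragments. These totals were recovered from the steps between FPKM values, not read from a count table. In CK replicate 1 the recovered fragments summed to 37450701, where the FPKM scaling implies 37450721 if coding lengths are multiples of 3. The headers of the separate library files carry the number 36 for CK and P2R and 48 for SA and P2R+SA, while the series design gives 48 h throughout. If the header number is a time in hours, time goes with the sinapic acid groups and the effects cannot be told apart, and a dye effect that changes with time is part of the interaction. A further 4 of unknown meaning stands in the P2R+SA headers alone, as P2R4SA48. Libraries of CK lay 0.211 to 0.235 log2 units apart (root mean square over genes), and those of P2R 0.219 to 0.316. SA libraries lay 0.465 to 0.559 apart. P2R+SA replicate 1 lay 0.481 and 0.504 from its own group, whose other libraries were 0.23 apart. It was the library nearest to SA replicate 1, at 0.50. Among libraries outside SA it was also the nearest to SA replicate 2, at 0.491, and to SA replicate 3, at 0.559. Response classes are counted with and without SA replicate 1 and P2R+SA replicate 1.

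For most genes the combined cultures stood within 1 log2 unit of the sum of the single effects, which is a wide margin for effects of this size. The interaction is the P2R+SA minus P2R difference less the SA minus CK difference, on log2(FPKM + 1), a scale on which additive effects multiply and changes of low genes are understated. It is the same number as the P2R+SA effect less the sum of both single effects. A limma fit over the 12 libraries called it at a Benjamini-Hochberg adjusted p under 0.05 for 106 genes, 1.15% of those tested, with 1350 at an unadjusted p under 0.05. The interaction was above 0 in 42 (0.455% of those tested) and below 0 in 64 (0.693%). Called interactions ran from -3.52 to 2.56 log2 units, with a median size of 1.56.

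A missed threshold does not show additivity, so the 95% confidence interval of each interaction was also used. It lay wholly within 1 log2 unit of additivity, that is within a factor of 2 on this scale, in 6599 genes (71.4%). Within 0.5 log2 units it lay in 1591. Of the 5708 genes in which neither single effect passed the test, 79.8% were additive within 1 log2 unit. That group depends on the fit: the dye alone changed 2640 genes here and 5137 with libraries weighted by quality. Of the 644 in which both passed, 291 were (45.2%). Over all tested genes, 346 had an interaction of at least 1 log2 unit that was not called. The median standard error (SE) of the interaction was 0.26 log2 units below 3 FPKM and 0.20 above 100 FPKM. With sampling error subtracted, interactions had an SD over genes of 0.37 log2 units, beside 0.55 for the dye effect and 0.51 for the sinapic acid effect. The margin of 1 log2 unit is wider than each of these. Genes with small single effects can therefore lie within it whether or not the effects add, and 2 genes with a called interaction did too.

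**Figure D1:**
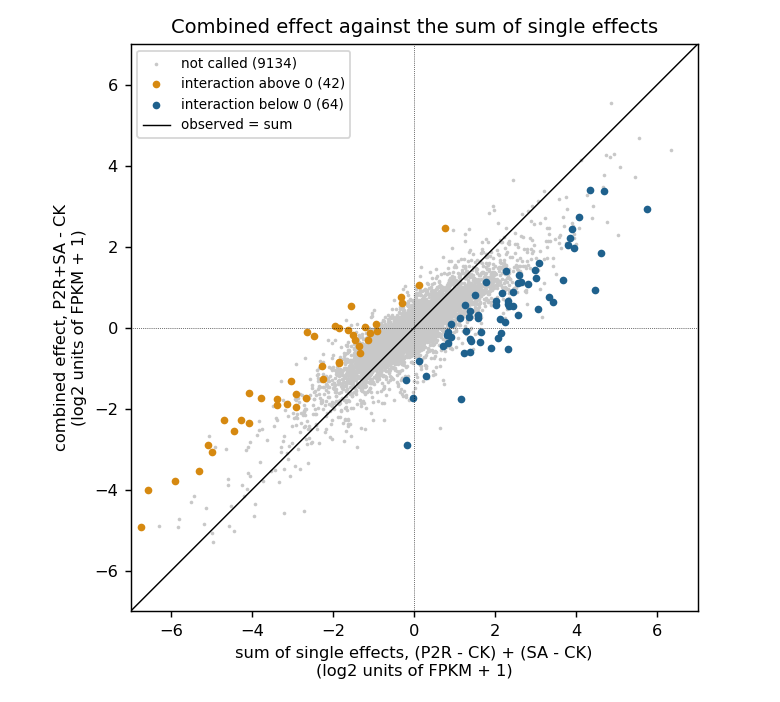
Combined effect (P2R+SA minus CK, vertical) against the sum of the single effects (horizontal), both in log2 units of FPKM + 1, for 9240 genes. Points on the diagonal are additive, and the 42 genes with a called interaction above 0 lie above it and the 64 below 0 lie under it. The CK libraries enter both axes.

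The 106 genes were mostly genes that moved with a single compound. The dye alone changed 86 of them and sinapic acid alone 72, where 28.6% and 16.6% of all tested genes changed. With the other compound already present, sinapic acid changed 77 of them (P2R+SA vs P2R, 19.8% of all tested genes) and the dye 35 (P2R+SA vs SA, 6.04%). Both compounds together left 68 of them different from CK, where 39.9% of tested genes differed. These comparisons share libraries with the interaction. In particular, both single effects enter it with a minus sign, which favours calls of genes whose interaction runs against their single effects. All counts by class are therefore descriptions.

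Each of the 106 genes was placed by its P2R+SA effect relative to the larger of its single effects. The rules were applied in order, and each gene was counted once. Genes with both single effects under 0.5 log2 units were set apart first, whatever their combined effect. Genes beyond both the sum and the larger effect came next, and the other classes hold the rest. Saturating genes, where both single effects ran the same way by at least 0.5 log2 units and the combined effect kept at least 0.5 of the larger, numbered 40. Cancelling genes, where the combined effect was under 0.5 of the larger single effect in either direction, numbered 50. Among genes not set apart before, a combined effect opposite to the larger single effect by at least 0.5 of its size was found in 5, called reversed here. In 4 genes at least 0.5 of the larger effect was kept while the other effect did not reach 0.5 log2 units in the same direction. The class set apart first held 5 genes, with single effects under 0.5 log2 units, which moved with both compounds. Outside it, only 2 genes went beyond both the sum and the larger effect, and genes within it could do so too. The class set apart first is defined by the single effects alone, with no condition on the size or direction of the combined effect. The rules fix the side of CK on which P2R+SA lies in saturating genes. In cancelling genes they fix its side of the single culture with the larger effect. Saturating and cancelling genes made up 84.9% of the calls with all 12 libraries. With 1 library left out, saturating genes numbered 13 (without CK replicate 3) to 105 (without SA replicate 2) and cancelling genes 17 to 147, in the same settings. Without any 1 CK or P2R library there were at most 17 saturating and 27 cancelling genes.

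The make-up of the classes depended on which libraries entered. With all 12, genes that went beyond the sum or had both single effects under 0.5 log2 units were 7 of 106 calls (6.60%). Without P2R+SA replicate 1 they were 29 of 142 (20.4%), and without SA replicate 1 they were 34 of 173 (19.7%). Without SA replicate 2 they were 42 of 330 (12.7%). Of these 42, 37 had both single effects under 0.5 log2 units. Their median P2R+SA minus CK difference was 0.087 log2 units, with 21 above CK and 16 below. These shares are therefore not shares of genes beyond additivity. With P2R+SA replicate 1 and SA replicate 1 both left out, both classes together held 123 of 345 (35.7%), 39 with a combined level above CK and 84 below. Among these 345, 67 were saturating and 86 cancelling (44.3% together), and 21 largely kept the larger effect. A further 71 had both single effects under 0.5 log2 units, and 52 of the rest went beyond the sum. Of the original 106 genes, 97 were called. Reversed genes went from 5 to 48, of which 42 were below CK in P2R+SA. With libraries weighted by quality, 494 genes were called, 140 of them beyond the sum or with both single effects under 0.5 log2 units (28.3%). All 106 interactions kept their direction in each of these settings. They were chosen by their interaction in the same libraries, so the kept direction is no independent support.

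**Figure D2:**
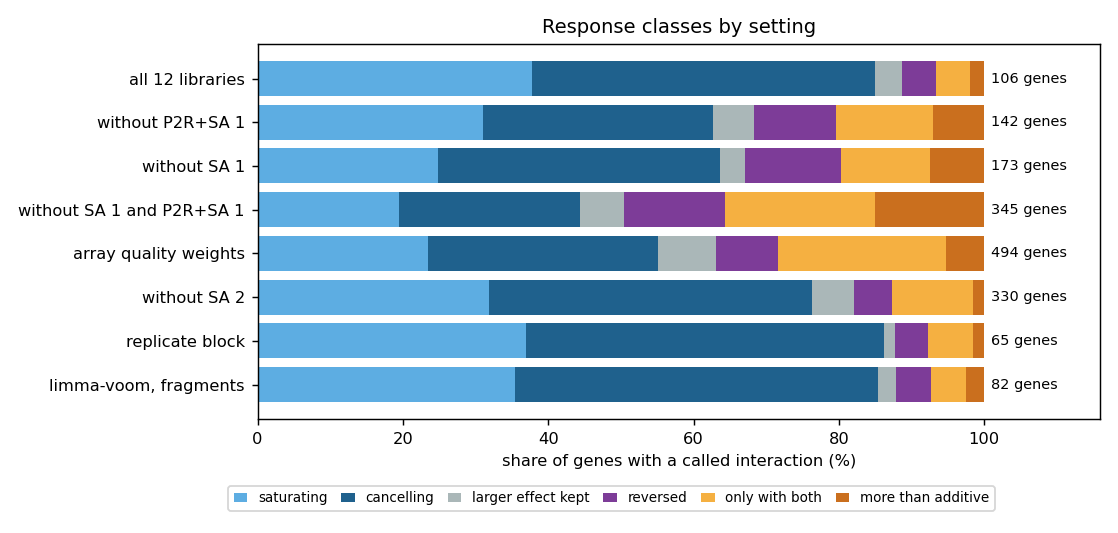
Share of genes with a called interaction in each response class (horizontal, in %), for all 12 libraries and for 7 other settings, with the number of called genes at the right. Genes beyond the sum (brown) or with both single effects under 0.5 log2 units (orange) were together 6.60% with all libraries. They were 35.7% without SA replicate 1 and P2R+SA replicate 1.

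Among the saturating genes, 21 were higher than CK with either compound and 19 had both single effects below 0. In the 21, the median log2 difference from CK was 1.45 in P2R and 1.28 in SA, their median sum was 3.01, and the observed median in P2R+SA was 1.42. Median levels were 26.02 FPKM in CK, 101 with the dye, 61.1 with sinapic acid and 114 with both. All 21 were higher in P2R+SA than in CK, but 2 were higher and 8 lower than in P2R, and 6 were higher than in SA. The combined effect was a median 84.4% of the larger single effect, with quartiles of 69.6% and 98.3%.

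The 19 saturating falls had median log2 differences from CK of -1.45 in P2R and -1.77 in SA, a median sum of -3.13 and an observed median of -1.89 in P2R+SA. Median levels were 23.6 FPKM without additions, 7.46 with the dye, 4.19 with sinapic acid and 3.88 with both. The combined effect was a median 89.8% of the larger single effect. All 19 stood below CK with both compounds, the side that the class rule sets. Averaged over the 4 groups, 11 of 19 had a mean under 10 FPKM, against 2 of the 21 saturating rises and 3026 of all 9240. That mean includes the groups in which these genes fell. In CK their median of 23.6 FPKM was close to the 21.9 FPKM of all tested genes. In 5 of the 19 the sum of the single effects would have placed the level below 0 FPKM, which cannot occur, and in 11 below 1 FPKM. For those 5 a departure from the sum on this scale was bound to appear.

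Cancelling genes were mainly dye responses that were absent or small when sinapic acid was present. The dye raised the gene more than sinapic acid did in 27 of the 50. Their median levels were 14.8 FPKM in CK, 64.2 with the dye, 18.7 with sinapic acid and 23.5 with both. Relative to CK, their median log2 difference was 1.68 with the dye, 0.25 with sinapic acid and 0.24 with both, where the median sum was 2.08. Adding sinapic acid to the dye lowered all 27 (P2R+SA vs P2R), a direction that the class rule sets. Adding the dye to sinapic acid raised 1 (P2R+SA vs SA), and 7 still differed from CK, 6 of them higher. In 20 of the 27, only the dye had changed the gene on its own.

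The other 23 cancelling genes fell into smaller groups. In 9 the larger single effect was a fall with the dye, with median levels of 12.3 FPKM without additions, 2.93 with the dye, 6.45 with sinapic acid and 11.2 with both. Of these, 8 were higher in P2R+SA than in P2R. In 7 the larger effect was a fall with sinapic acid, from a median of 87.0 FPKM in CK to 6.92 in SA, against 77.0 in P2R and 32.1 in P2R+SA. All 7 were higher in P2R+SA than in SA, the direction that the class rule sets. With both compounds 4 of the 7 still differed from CK, 3 lower and 1 higher. In the last 7 the larger effect was a rise with sinapic acid, from a median of 8.01 FPKM in CK to 23.2 in SA and 10.3 in P2R+SA, and the combined level was under the SA level in 6.

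**Figure D3:**
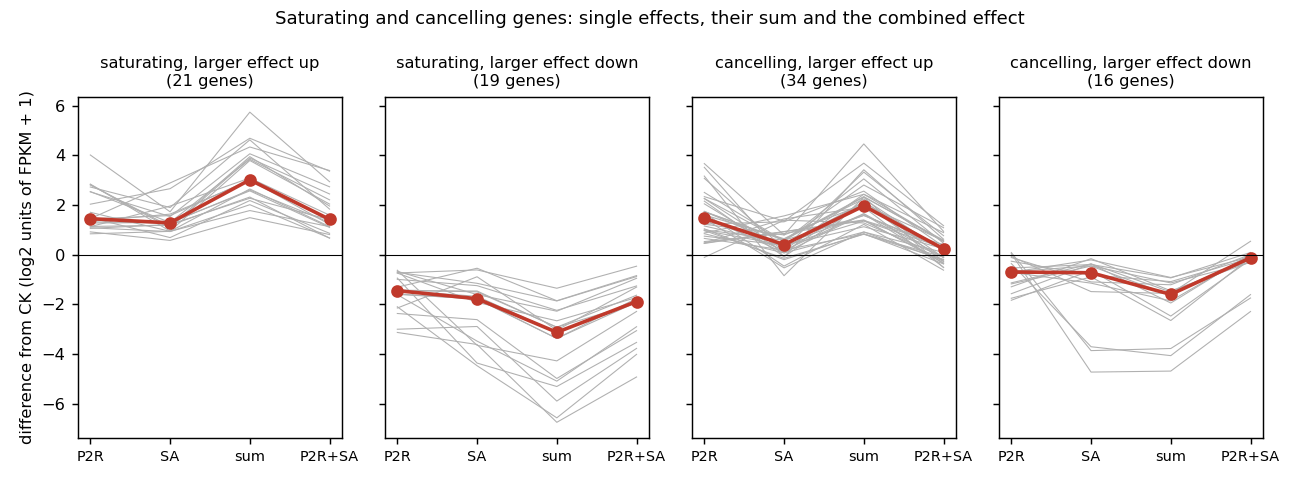
Difference from CK in log2 units of FPKM + 1 for the saturating (21 and 19 genes) and cancelling genes (34 and 16), split by the direction of the larger single effect. Grey lines are genes and red points medians. The P2R+SA median of saturating genes lies near the single effects and short of their sum, and that of cancelling genes lies near 0. The class rules bound these positions.

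IDs were named by size alone, as the 2 highest and the 2 lowest called interactions among genes with a mean of at least 5 FPKM in any group. The lowest was A04666, with a coding length of 1620 bp, a cancelling gene. It held 22.5, 25.1 and 32.6 FPKM in the 3 CK libraries and 311, 409 and 329 FPKM in P2R. In SA it held 36.4, 62.0 and 44.4 FPKM, and in P2R+SA 51.6, 70.4 and 37.6 FPKM. The P2R libraries stood far above all others, and the SA and P2R+SA libraries overlapped. The mean rose 13.1-fold with the dye alone, from 26.7 ± 5.24 to 350 ± 52.2 FPKM (SD, n = 3), and was 53.2 ± 16.4 FPKM with both compounds. The sum of the single effects would have given 602 FPKM. The log2 interaction was -3.52 (SE 0.34, limma adjusted p = 0.00135), an 11.5-fold shortfall on this scale, and it was called under every alternative run, at adjusted p of up to 0.0083.

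A05251, of 1578 bp, was a reversed gene. It held 19.3, 19.9 and 21.2 FPKM in CK, 46.2, 34.5 and 35.99 in P2R, and 17.3, 35.5 and 22.9 in SA. In P2R+SA it held 10.52, 3.66 and 3.44 FPKM, below every library of the other groups, with replicate 1 nearest to them. Neither single effect passed the test, with log2 changes of 0.90 for the dye (SE 0.33, limma adjusted p = 0.0612) and 0.25 for sinapic acid (SE 0.33, limma adjusted p = 0.633). The SE comes from 1 variance over all 4 groups, and every P2R library stood above every CK library. With both compounds the gene fell by 1.77 log2 units relative to CK (SE 0.33, limma adjusted p = 0.00188). The interaction of -2.93 (SE 0.47, limma adjusted p = 0.0133) was -3.38 without P2R+SA replicate 1, and it was called under every alternative run, at limma adjusted p of up to 0.0475.

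A10366, of 1119 bp, had a high interaction with a fall from each compound alone. It held 15.6, 10.4 and 10.8 FPKM in CK and 2.11, 3.84 and 2.84 in P2R. The SA libraries held 4.08, 7.24 and 7.27 FPKM and the P2R+SA libraries 8.47, 13.3 and 11.998. P2R and CK did not overlap, whereas P2R+SA overlapped with CK. Both single falls passed (log2 changes -1.76 and -0.90, SE 0.25 each, limma adjusted p = 0.000843 and 0.0284). In P2R+SA the mean was 11.3 ± 2.50 FPKM against 12.3 ± 2.86 in CK (SD, n = 3), a log2 difference of -0.11 (SE 0.25, limma adjusted p = 0.734). The sum of the falls would have given 1.08 FPKM. Its interaction was 2.54 (SE 0.35, limma adjusted p = 0.00488) and was called under every alternative run, at adjusted p of up to 0.0197.

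A04815, of 681 bp, was the highest interaction and a saturating fall of an abundant transcript. It held 1272, 931 and 940 FPKM in CK and 264, 202 and 262 in P2R. In SA it held 54.0, 65.5 and 26.8 FPKM, and in P2R+SA 100.5, 55.7 and 44.9, so these groups overlapped and both lay below P2R. The log2 change was -2.099 with the dye, -4.47 with sinapic acid and -4.02 with both (SE 0.33 each, limma adjusted p = 0.00142, 7.85e-06 and 7.98e-06). The sum of the falls would have given 9.89 FPKM, and 67.0 ± 29.5 FPKM was observed (SD, n = 3). The interaction of 2.56 (SE 0.46, limma adjusted p = 0.0241) lost its call without any 1 of the CK or P2R libraries, at adjusted p of 0.0597 to 0.0828.

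**Figure D4:**
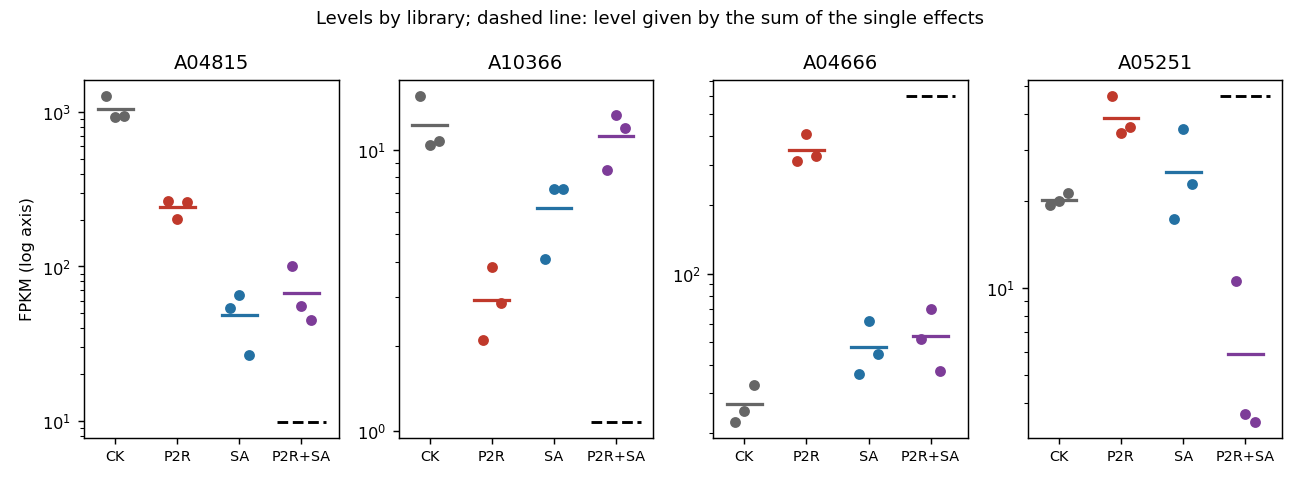
FPKM on log axes in each of 12 libraries for A04815, A10366, A04666 and A05251; points are libraries and solid lines group means. The dashed line is the P2R+SA level that the sum of the single effects gives, 9.89, 1.08, 602 and 46.2 FPKM. The P2R+SA libraries stand above it in the first pair and below it in the second.

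Measured as a sum of FPKM instead of a sum of logarithms, the direction of the departure was the same in 104 of the 106 genes. In 101 it was also more than 2 SE from 0, the SE being built from the 4 group variances. The 2 genes that changed sign were saturating rises, below the multiplied level but above the added one, both under 2 SE on the FPKM scale. In A04666 the added level was 371 FPKM, and the P2R+SA mean differed from it by -317 FPKM (SE 32.6). In A05251 the added level was 44.0 FPKM and the difference -38.1 FPKM (SE 6.95). Among the 42 genes with an interaction above 0, the FPKM sum was below 0 in 24, including all 19 saturating falls. For falls, the sum of FPKM is therefore often a level that cannot be reached. In those 24 the same direction on both scales was fixed beforehand.

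Genes that both compounds changed the same way give the wider picture around the saturating calls. Of 241 genes that rose with each compound, 30 were called higher in P2R+SA than in both single cultures. Another 56 were called higher than in 1 of them (32 than in P2R and 24 than in SA), and 155 than in neither. A missed call does not show that a level was no higher. Lower levels than in P2R were found in 15 and than in SA in 2. Over all 9240 tested genes, 787 were higher and 1041 lower in P2R+SA than in P2R. Against SA, 266 of the 9240 were higher and 292 lower. Median log2 differences from CK were 0.93 with the dye, 0.89 with sinapic acid and 1.20 with both, against a median sum of 1.85. Their point estimates were short of the sum in 224 and beyond it in 17. Of the 224, 145 reached at least the larger single effect and 79 were under it. The interaction was called in 31 (1.15% over all tested genes), all below 0.

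Of the 317 genes that fell with each compound, 52 were called lower in P2R+SA than in both single cultures and 188 than in neither. By point estimate, the combined fall was beyond the sum in 36, between the larger single fall and the sum in 204, and under the larger in 77. Their median differences from CK were -0.80, -0.87 and -1.17 log2 units in the same order, against a median sum of -1.66. The interaction was called in 22, against the same 1.15%, all above 0. The interval lay within 1 log2 unit of additivity in 92 of the 241 rises (38.2%) and 145 of the 317 falls (45.7%), beside 71.4% of all tested genes. Genes picked for large single effects have a sum that is high by selection, and CK enters both effects, so a shortfall of the medians is favoured by the choice.

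Genes with opposite single effects were fewer. Of 56 genes that rose with the dye and fell with sinapic acid, 24 differed from CK in P2R+SA, a share near the 39.9% of all tested genes, and 22 of the 24 were lower. Their median log2 difference from CK was 0.79 for the dye, -0.87 for sinapic acid and -0.29 for both, beside a median sum of -0.11. Of 30 genes with the reverse pattern, 16 differed from CK in P2R+SA, 15 of them higher. The interaction was called in 3 of the 56 and 1 of the 30, beside 1.15% of all tested genes. Its interval lay within 1 log2 unit in 34 and 20, beside 71.4% of all tested genes.

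Of the 5708 genes in which neither single effect passed, 1357 differed from CK with both compounds, 447 higher and 910 lower. Over all 9240 tested genes, 3689 differed (39.9%), 1409 higher and 2280 lower. The interaction was called in 5 of them, the same 5 as among all 5708 genes with no passing single effect. Of the 1357, 79.7% were additive within 1 log2 unit, near the 79.8% of the 5708 they were drawn from. Dye alone moved them by a median of -0.13 log2 units, sinapic acid by -0.18 and both by -0.43, beside a median sum of -0.32.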

How the data were processed

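Messenger RNA libraries of mycelium (12, in 4 groups of 3) were deposited as FPKM values, scaled by the authors to gene length and library size before deposit. Per the submitters' processing notes the tools were HISAT2, HTSeq, fastp and R 3.2.0, with no roles stated. Build, annotation and strand setting: not given in the sources used here. The series-wide table served for all tests. Whole fragments were recovered from the library files for all 10229 genes above 0 (within 1e-06, wider in proportion for high values) and served for depth, for coding length and for limma-voom.

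On log2(FPKM + 1), 4 group means were fitted by limma 3.58.1 (R 4.3.3) with 8 residual degrees of freedom and an intensity trend, two-sided, with Benjamini-Hochberg adjustment over 9240 genes; a gene entered if 3 or more libraries reached 1 FPKM. The fit has 1 variance per gene over the 4 groups, so the wider spread of SA and P2R+SA entered every SE. It was run on simulated data with an equal spread in all groups, which does not test it at the unequal spread found here. Named IDs are the 2 highest and 2 lowest called interactions with a group mean of at least 5 FPKM. Genes, classes, libraries left out and tests were chosen with earlier results of these data known. Alternatives covered pseudocount, filter, scaling, weights, trend, block, left-out libraries and fragments. FPKM intervals cover the spread of 3 libraries per group only.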

Additional observations from a re-analysis of the deposited data

Results flagged for a closer look

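In 106 genes the limma interaction test called a difference between P2R+SA minus P2R and SA minus CK. If the header numbers are times, a dye effect that changes with time is part of it and cannot be told apart. The 4 named IDs carried the extreme values, 2.56 in A04815, 2.54 in A10366, -3.52 in A04666 and -2.93 in A05251 (log2 interaction). With 3 libraries per group, single libraries were not tested as outliers.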

How the results depend on the processing

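The count of called interactions was 106 with all libraries. It ranged from 36 (without CK replicate 3) to 330 (without SA replicate 2) when 1 library was left out, and array quality weights gave 494. Dropping SA replicate 1 together with P2R+SA replicate 1 gave 345. It fell to 41 to 50 without any other CK library or any P2R library and was 173 without SA replicate 1. Same-numbered libraries deviated together (r over 0.1) in 3 of 18 pairs, so the numbers were not taken as pairing; a replicate block gave 65 calls, 61 of them among the 106. Pseudocounts, filters, scalings, no trend and limma-voom on fragments gave 80 to 130. The median of all genes in P2R+SA vs CK lay at -0.11 log2 units as deposited and at -0.0053 after median-of-ratios scaling; the median interaction lay within 0.05 of 0 in all settings run. Genes additive within 1 log2 unit numbered 6599, and 1591 within 0.5. The SD of the interaction over genes was 0.374, against 0.424 with a pseudocount of 0.1, 0.303 with 5 and 0.431 with limma-voom, and 0.333 to 0.440 with 1 library left out. Where effects under 1 log2 unit counted as absent, 25 called genes had both single effects absent, in place of 5. With a limit of 0.25 there were 0 such genes, and 5 genes were classed as beyond the sum in place of 2. Depth was similar in all libraries, whereas spread was not, and only 3 libraries stand behind each group mean; the cause of these shifts was not tested.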

Other observations

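Most called genes had no called neighbour in the numbering of the IDs. Of the 182 tested genes whose ID number was next to that of a called gene, 10 were called (5.49%, against 1.15% of all tested genes), as 5 adjacent pairs, and both genes of each pair had an interaction of the same sign. Within 5 numbers of a called gene, 24 of 812 tested genes were called (2.96%). Whether ID numbers follow genome order, and whether adjacent genes share fragments or sequence, is not given in the sources used here and was not tested.

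The called genes had a median coding length of 1098 bp, against 1350 bp over all tested genes, and the 7 cancelling genes with a larger fall in sinapic acid a median of 384 bp. The share called was 0.668% among genes with a mean under 3 FPKM, 1.31% from 3 to 10, 0.736% from 10 to 30, 1.39% from 30 to 100 and 1.56% above 100 FPKM. Below 3 FPKM 6 of 8 calls were above 0, and above 100 FPKM 18 of 25 were below 0.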
